A study of Mus musculus with 6 samples.

Results

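The 10 genes described here encode the core of transforming growth factor beta (TGF-beta) signaling: the ligands *Tgfb1*, *Tgfb2*, and *Tgfb3*, the receptors *Tgfbr1*, *Tgfbr2*, and *Tgfbr3*, and the SMAD proteins *Smad2*, *Smad3*, *Smad4*, and *Smad7*. They were chosen by name, and each matched 1 row among the 55421 genes of the deposited tables. C2C12 is a mouse myoblast line whose cells fuse into multinucleated myotubes when serum is withdrawn, and the RNA was taken at day 4 of differentiation. The normal group (CUG5) and the DM1 group (CUG200) were both stably transfected C2C12 cells selected with G418. The plasmids expressed *GFP* with 5 CTG repeats in the normal group and 200 CTG repeats in the DM1 group, the latter as a model of the expanded repeat of myotonic dystrophy type 1. Each group had 3 libraries, all 6 labelled as day 4 of differentiation, and no collection dates or batches were given. The methods do not say whether the libraries of a group came from separate transfections, so the p-values measure the spread between these libraries and not between independent lines. The libraries held between 61707889 and 80957325 counts, each count being worth 75 aligned bases. DM1 library 3 stood apart from the rest of its group: measured on raw counts as chi-square over its degrees of freedom, it was at 147 from DM1 library 1 and at 100.02 from DM1 library 2, and at 137, 123, and 157 from normal libraries 1, 2, and 3. Normal library 1 also stood apart from its group, at 77.2 and 100.5 from normal libraries 2 and 3, which were at 38.6 from each other. Each library was therefore left out in turn, and results that turn on DM1 library 3 are also given without it.

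TGF-beta ligands are secreted in a latent form and must be released before they can bind a receptor. The type II receptor TGFBR2 then recruits and phosphorylates the type I receptor TGFBR1, and TGFBR3 (betaglycan) presents ligand, TGF-beta2 above all, to that pair. The activated type I receptor phosphorylates SMAD2 and SMAD3, which enter the nucleus with SMAD4, while SMAD7 blocks the receptor and is itself a target gene of the pathway. In muscle the pathway is known as an inhibitor of myoblast differentiation and as a driver of matrix production. The comparison asked whether the RNA of these components differed between DM1 and normal myoblasts. RNA levels do not show how much ligand was active or how much SMAD protein was present or phosphorylated.

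Of the 10 genes, *Tgfbr1* and *Smad3* were downregulated in the DM1 group and *Tgfbr3* was upregulated, each at an adjusted p under 0.05 in edgeR's quasi-likelihood test. *Tgfbr1* was 1.68-fold lower and *Tgfbr3* 1.81-fold higher. The other 7 genes did not pass. Thus 1 of 10 was higher and 2 of 10 were lower, where 7.13% of the 19005 tested genes were higher and 8.73% were lower (15.9% in either direction). That was 1356 genes higher and 1660 lower, against 427 and 816 with limma on log2(TPM + 1). The same limma fit called 1 of the 10 genes higher and 1 lower. *Smad3* kept its call in 1 of 6 edgeR fits that left out a library (adjusted p up to 0.201). No member passed the study's stricter cutoffs, which also ask for an absolute log2 fold change over 1 and were met by 2.18% of all tested genes (1.36% higher and 0.816% lower), and no member reached that fold in edgeR, DESeq2, or limma. The median log2 fold change of the 10 genes was −0.17, beside 0.02 over all tested genes.

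**Figure D1:**
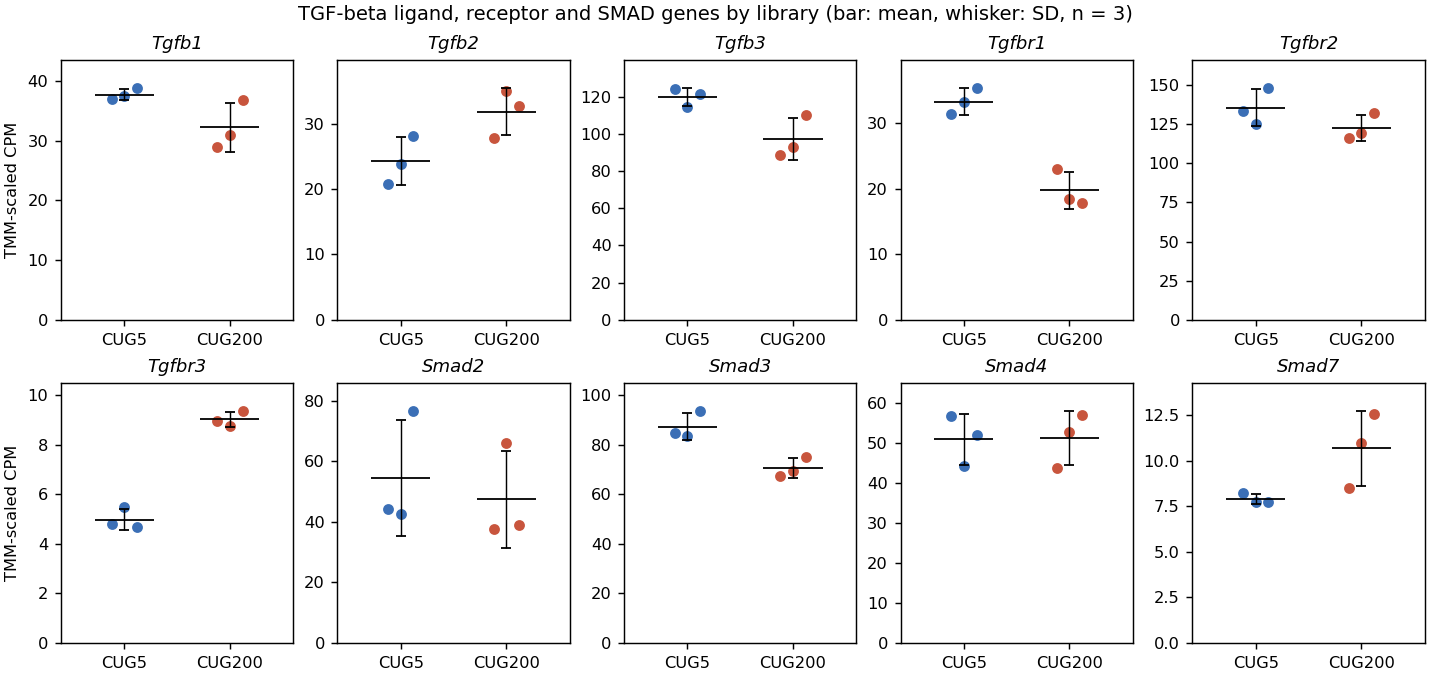
Normalized level (CPM, counts scaled by library total and TMM factor, vertical axes from 0) of each gene in the 3 normal (CUG5, blue) and 3 DM1 (CUG200, red) libraries, with the mean as a bar and the SD as a whisker. *Tgfbr1* lay between 31.4 and 35.4 CPM in the normal group and between 17.9 and 23.1 CPM in the DM1 group, and *Tgfbr3* showed the opposite order.

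SMAD3 and SMAD4 proteins bind the short motif CAGAC. RefSeq promoters (GRCm38.p6, 250 bases before to 50 bases after a start site) were matched by symbol for 5 of the 10 genes, of which *Tgfb1*, *Tgfb2*, *Smad3*, and *Tgfbr1*, with 2 start sites, are described here. The other matched gene, *Tgfbr2*, is not described, so the matches below are not a tally over all 5 genes. The letters CAGAC, or GTCTG on the other strand, were found in *Tgfb2* and at the second start site of *Tgfbr1*, but not at its first start site nor in *Tgfb1* or *Smad3*. They occur in 49.6% of 32851 promoters of that length. The longer palindrome GTCTAGAC was found in none of these and in 0.213% of promoters. The matches are shown as 30 bases each, 5′ to 3′ on the gene's strand, with the motif in capitals and their place given relative to the start site.
Tgfb2 at −221, chr1:186706193-186706222, minus strand: cccctccacacaCAGACccttggtgatcac
Tgfb2 at −204, chr1:186706176-186706205, minus strand: ccttggtgatcaCAGACagtgactactgca
Tgfbr1 second start at −203, chr4:47386001-47386030, plus strand: tttcgaactcagCAGACagccccacggtcc
A match is a description of these letters and does not show binding.

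The ligand genes did not pass the test, and 2 of the 3 leaned lower. *Tgfb1* (ENSMUSG00000002603, GRCm38 chr7:25687002-25705077, plus strand) is the ligand most studied in fibrosis. Its normalized level (CPM, counts scaled by library total and TMM factor) was 36.9, 37.5, and 38.8 CPM in normal libraries 1, 2, and 3 and 28.9, 30.9, and 36.9 CPM in DM1 libraries 1, 2, and 3. DM1 libraries 1 and 2 were low, while DM1 library 3 nearly met the lowest normal library, so the groups were separate by a small margin. Its log2 fold change was −0.23 (SE 0.106, 95% interval −0.47 to 0.01, adjusted p = 0.186 in edgeR). It passed in 1 of 6 fits that left out a library, without DM1 library 3 (−0.34, adjusted p = 0.0274 in edgeR), and was −0.14 without DM1 library 1 (adjusted p = 0.414).

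*Tgfb3* (ENSMUSG00000021253, chr12:86056745-86079041, minus strand) had the highest level of all 10 genes per transcript length. It was measured at 124, 115, and 121 CPM in the normal group and at 88.6, 92.8, and 110 CPM in the DM1 group. All DM1 libraries were below all normal ones, with DM1 library 3 again nearest to them. Its log2 fold change was −0.31 (SE 0.0985, 95% interval −0.53 to −0.08, adjusted p = 0.0691 in edgeR), which missed the threshold. It passed with DESeq2 (adjusted p = 0.0449) and without DM1 library 3 (log2 fold change −0.40, adjusted p = 0.00937 in edgeR), and in no other fit, where its adjusted p reached 0.215. The gene model Gm37804 overlaps its exons on the opposite strand with between 33 and 63 counts per library, and whether the counting used strand is not given in the sources used here.

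*Tgfb2* (ENSMUSG00000039239, chr1:186622792-186705989, minus strand), the ligand that depends most on betaglycan, leaned the other way. Its values were 20.8, 23.9, and 28.1 CPM in the normal group and 27.9, 35.0, and 32.7 CPM in the DM1 group. The groups touched, since DM1 library 1 was just below normal library 3. This gave a log2 fold change of 0.39 (SE 0.135, 95% interval 0.09 to 0.70, adjusted p = 0.0842 in edgeR). It passed with DESeq2 (adjusted p = 0.0435) and without DM1 library 1 (log2 fold change 0.49, adjusted p = 0.0458 in edgeR). With another library left out it missed the threshold, and its adjusted p reached 0.248.

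*Tgfbr1* (ENSMUSG00000007613, chr4:47353222-47414931, plus strand) encodes the type I receptor kinase that phosphorylates SMAD2 and SMAD3. Normal libraries 1, 2, and 3 gave 2637, 2040, and 2475 counts for it, and DM1 libraries 1, 2, and 3 gave 1715, 1314, and 1189. On the normalized scale these were 31.4, 33.2, and 35.4 CPM against 23.1, 18.4, and 17.9 CPM. The DM1 libraries were all well below the normal ones, with means of 19.8 ± 2.84 and 33.3 ± 2.03 CPM (SD, n = 3 each). *Tgfbr1* thus changed by a log2 fold change of −0.75 (SE 0.120, 95% interval −1.02 to −0.48, adjusted p = 0.00617 in edgeR). *Tgfbr1* stayed past the threshold under all 16 alternative settings, with log2 fold changes between −0.86 and −0.68 and adjusted p-values between 3.88e-06 and 0.0355. Without DM1 library 3 it was −0.68 (adjusted p = 0.00837 in edgeR).

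*Tgfbr3* (ENSMUSG00000029287, chr5:107106570-107289629, minus strand) encodes betaglycan, a coreceptor without kinase activity. Its counts were 405, 336, and 326 in the normal group and 666, 625, and 623 in the DM1 group. These came to 4.82, 5.47, and 4.67 CPM and to 8.96, 8.77, and 9.37 CPM. The lowest DM1 library lay clearly above the highest normal library, and the libraries within each group were close. The log2 fold change was 0.86 (SE 0.128, 95% interval 0.57 to 1.15, adjusted p = 0.00477 in edgeR), with means of 9.03 ± 0.305 and 4.99 ± 0.428 CPM (SD, n = 3 each). It also passed under all 16 alternative settings (adjusted p from 8.58e-06 to 0.0345), and without DM1 library 3 it was 0.83 (adjusted p = 0.00742 in edgeR). Part of its exons lie within Gm43422 on the same strand, a gene model with between 1 and 14 counts per library, and adding those counts left the log2 fold change at 0.86 (adjusted p = 0.00458 in edgeR).

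*Tgfbr2* (ENSMUSG00000032440, chr9:116084293-116175360, minus strand), the ligand-binding type II receptor, did not pass. It was at 133, 125, and 148 CPM in the normal group and at 116, 120, and 132 CPM in the DM1 group, and the groups overlapped. Its log2 fold change was −0.14 (SE 0.0942, adjusted p = 0.347 in edgeR), and its 95% interval ran from −0.36 to 0.07. It was −0.06 without normal library 3 and −0.09 without DM1 library 1. The 3 receptor genes thus covered a fall, a rise, and a value whose interval spans 0.

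**Figure D2:**
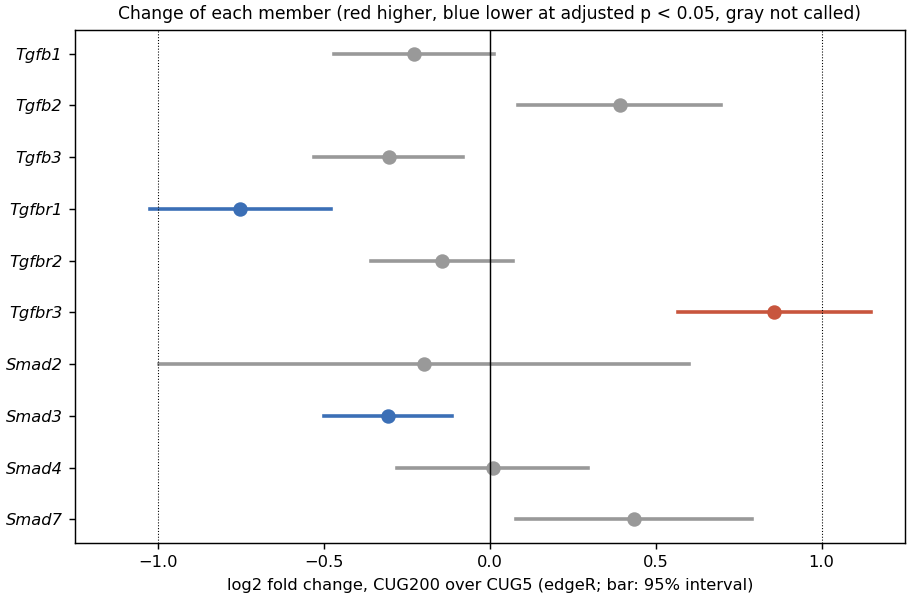
Log2 fold change of the DM1 over the normal group for each gene (horizontal axis), with its 95% interval from edgeR as a bar and dotted lines at −1 and 1. *Tgfbr3* (red, 0.86) passed above 0, *Tgfbr1* (blue, −0.75) and *Smad3* (blue, −0.31) passed below 0, and the gray genes did not pass.

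*Smad3* (ENSMUSG00000032402, chr9:63646767-63757994, minus strand) encodes the receptor-activated SMAD through which TGF-beta is known to act on myogenic genes. It was measured at 84.9, 83.4, and 93.6 CPM in the normal group and at 67.2, 69.3, and 75.2 CPM in the DM1 group. No DM1 library reached the lowest normal one. The log2 fold change was −0.31 (SE 0.0847, 95% interval −0.50 to −0.11, adjusted p = 0.0413 in edgeR), close to the threshold. The direction held under all 16 alternative settings and the call under 8 of them. It was lost without each normal library (adjusted p = 0.0960, 0.0879, and 0.201 without libraries 1, 2, and 3) and without DM1 libraries 1 and 2 (0.0811 and 0.139), and held without DM1 library 3 (0.0189). It was also lost with library sizes in place of TMM (0.0693) and with limma on log2(TPM + 1) (0.120). By western blotting on the same day of differentiation, the study found SMAD3 and phosphorylated SMAD3 protein to be higher in the DM1 group. The *Smad3* RNA thus went the opposite way to the reported protein, and the reason was not tested.

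*Smad2* (ENSMUSG00000024563, chromosome 18, plus strand), the other receptor-activated SMAD, was the most variable of the 10 genes. Its levels were 44.3, 42.6, and 76.6 CPM in the normal group and 37.6, 65.9, and 38.9 CPM in the DM1 group. A single library in each group, normal library 3 and DM1 library 2, was far above the other libraries. The log2 fold change was −0.20 with an SE of 0.325 (95% interval −0.997 to 0.601, adjusted p = 0.745 in edgeR), and it turned to 0.14 without normal library 3, so *Smad2* has no stated direction here.

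*Smad4* (ENSMUSG00000024515, chromosome 18, minus strand), the shared partner of the receptor-activated SMADs, was at 56.5, 44.1, and 51.8 CPM in the normal group and at 43.7, 52.7, and 57.0 CPM in the DM1 group. The groups overlapped over their whole range. This gave a log2 fold change of 0.01 (95% interval −0.28 to 0.30, adjusted p = 0.976 in edgeR), and its sign depended on the setting.

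*Smad7* (ENSMUSG00000025880, chromosome 18, plus strand) encodes the inhibitory SMAD and had the lowest level of the 4. It was at 8.21, 7.74, and 7.76 CPM in the normal group and at 8.51, 10.96, and 12.6 CPM in the DM1 group. All DM1 libraries were above all normal ones, but DM1 library 1 by little. The log2 fold change was 0.43 (SE 0.156, 95% interval 0.08 to 0.79, adjusted p = 0.0952 in edgeR), which missed the threshold. It passed in 1 alternative, without DM1 library 1 (log2 fold change 0.59, adjusted p = 0.0250 in edgeR), and was lowest with limma on log2(TPM + 1), at 0.19 (adjusted p = 0.575).

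For each of the 3 genes that passed, the genes of most similar pattern over the 6 libraries were looked up among 9661 genes with a mean of at least 10 CPM, by Pearson's r of log2 CPM and as a description. They were *Ruvbl1* (r = 0.998) and *Bod1* (0.997) for *Tgfbr1*, *Cdk14* (0.994) and *A4galt* (0.994) for *Tgfbr3*, and *Gnaq* (0.998) and *Rab5b* (0.996) for *Smad3*. The 6 points share the same 2 groups, and no p-value is attached.

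Counted by overlap of the normalized levels, 2 of the 10 genes (*Tgfbr3* and *Smad7*) were higher in every DM1 library than in any normal library, and 4 (*Tgfb1*, *Tgfb3*, *Tgfbr1*, and *Smad3*) were lower. Over all tested genes 17.9% were separate in the higher direction and 19.3% in the lower direction (37.2% in either).

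Levels of different genes were compared as TPM, which the deposited tables scale for transcript length. In the normal group *Tgfb3* stood highest at 59.6 ± 5.12 TPM (SD, n = 3). It was followed by *Tgfbr2* at 33.9 ± 2.88, *Tgfb1* at 30.2 ± 1.64, *Smad3* at 29.3 ± 2.01, and *Smad4* at 29.1 ± 3.10 TPM, 4 genes whose neighbours in that order overlapped between libraries. *Smad2* lay below them at 18.1 ± 1.74 TPM. *Tgfbr1* at 10.5 ± 0.213 and *Tgfb2* at 9.39 ± 0.879 TPM overlapped, and *Smad7* (3.35 ± 0.240) and *Tgfbr3* (1.64 ± 0.214 TPM) came last.

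In the DM1 group *Tgfb3* (44.7 ± 9.89 TPM) was again highest and *Tgfbr3* (3.36 ± 0.552 TPM) lowest, but *Tgfb2* and *Tgfbr1* no longer overlapped. *Tgfb2* was at 10.2, 13.4, and 13.04 TPM and *Tgfbr1* at 6.22, 5.36, and 6.10 TPM in DM1 libraries 1, 2, and 3. *Tgfbr3* now overlapped with *Smad7* (4.03 ± 1.15 TPM). The TPM values of DM1 library 3 were the highest of the DM1 group for 7 of the 10 genes, while mitochondrial genes took 8.90% of its counts and 13.4% and 13.5% in the other DM1 libraries (9.04% to 12.6% in the normal group). The part of this difference in the TPM levels was not tested.

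Shares within a class do not depend on the scaling between libraries, and they are given as a description. Of the summed TPM of the 3 ligands, *Tgfb2* took 8.73%, 9.22%, and 10.5% in the normal libraries and 15.5%, 17.5%, and 13.1% in the DM1 libraries. *Tgfb3* took 60.1% ± 1.24 (SD, n = 3) and 55.2% ± 1.24, and *Tgfb1* took 30.4% ± 0.469 and 29.5% ± 1.24. The ligand mix thus held a larger share of *Tgfb2* and a smaller share of *Tgfb3* in every DM1 library than in any normal library.

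Of the summed TPM of the 3 receptors, *Tgfbr3* took 3.82%, 3.80%, and 3.10% in the normal libraries and 8.97% ± 1.80 (SD, n = 3) in the DM1 libraries, of which the lowest had 7.59%. *Tgfbr1* took 22.9% ± 1.22 and 15.7% ± 1.97 (SD, n = 3 each), again without overlap. *Tgfbr2* made up most of the receptor RNA in both groups, at 73.5% ± 1.26 and 75.3% ± 2.43, and its libraries overlapped. Among the 4 SMAD genes, *Smad7* took 4.20% ± 0.319 and 5.81% ± 0.481, *Smad3* 36.7% ± 1.05 and 32.2% ± 2.35, and the shares of *Smad2* and *Smad4* overlapped.

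**Figure D3:**
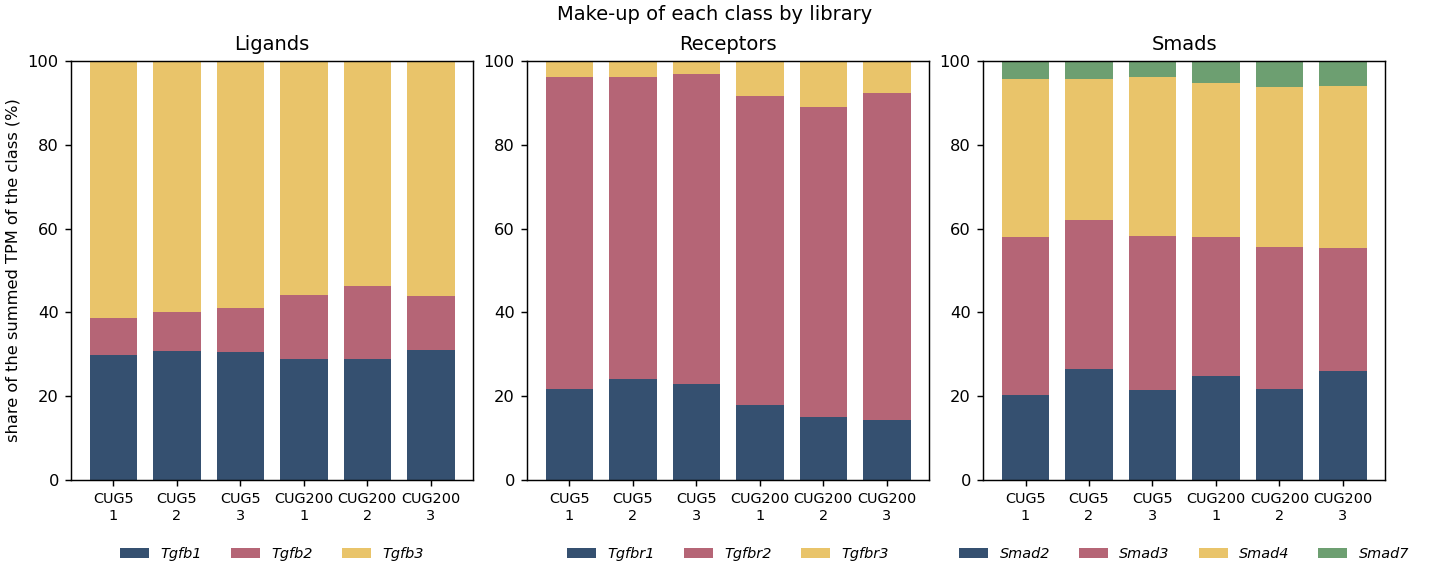
Share of each gene in the summed TPM of its class (%, vertical axis), for the 3 ligand, 3 receptor, and 4 SMAD genes, with 1 stacked bar per library. *Tgfb2* and *Tgfbr3* took larger shares and *Tgfbr1* a smaller share in all 3 DM1 libraries, while *Tgfbr2* stayed between 72.1% and 78.1%.

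The counts and the TPM values together give the mean length of the transcripts that StringTie assigned to a gene, because the counts follow aligned bases and TPM divides them by length. For *Tgfb3*, which has a single transcript of 3383 bases in GENCODE M21, the implied length was 3383 bases in every library. For *Smad2* it was 4742, 3494, and 7044 bases in the normal libraries and 3779, 7362, and 2919 bases in the DM1 libraries. The libraries with the longest implied *Smad2* transcripts were those with the highest CPM, normal library 3 and DM1 library 2. In TPM normal library 3 did not stand out, at 16.7, 20.0, and 17.5 TPM in the normal group, and DM1 library 2 was the lowest of its group (14.04, 13.5, and 22.9 TPM). *Smad2* has 7 transcripts in GENCODE M21, between 614 and 8089 bases long.

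*Tgfbr1* was the only one of the 10 genes whose groups did not overlap in implied length. It was 5281, 5304, and 5339 bases in the normal group and 5232, 5178, and 5035 bases in the DM1 group, a small difference between means of 5308 ± 29.2 and 5148 ± 102 bases (SD, n = 3 each). Over the genes with more than 1 transcript and at least 100 counts in every library, 9.13% had separate groups with shorter DM1 transcripts and 4.22% with longer ones (13.4% in either direction). *Tgfbr3* ranged from 4602 to 5545 bases in the normal group and from 3337 to 4969 bases in the DM1 group, with overlap. Which transcript was used was not measured directly.

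**Figure D4:**
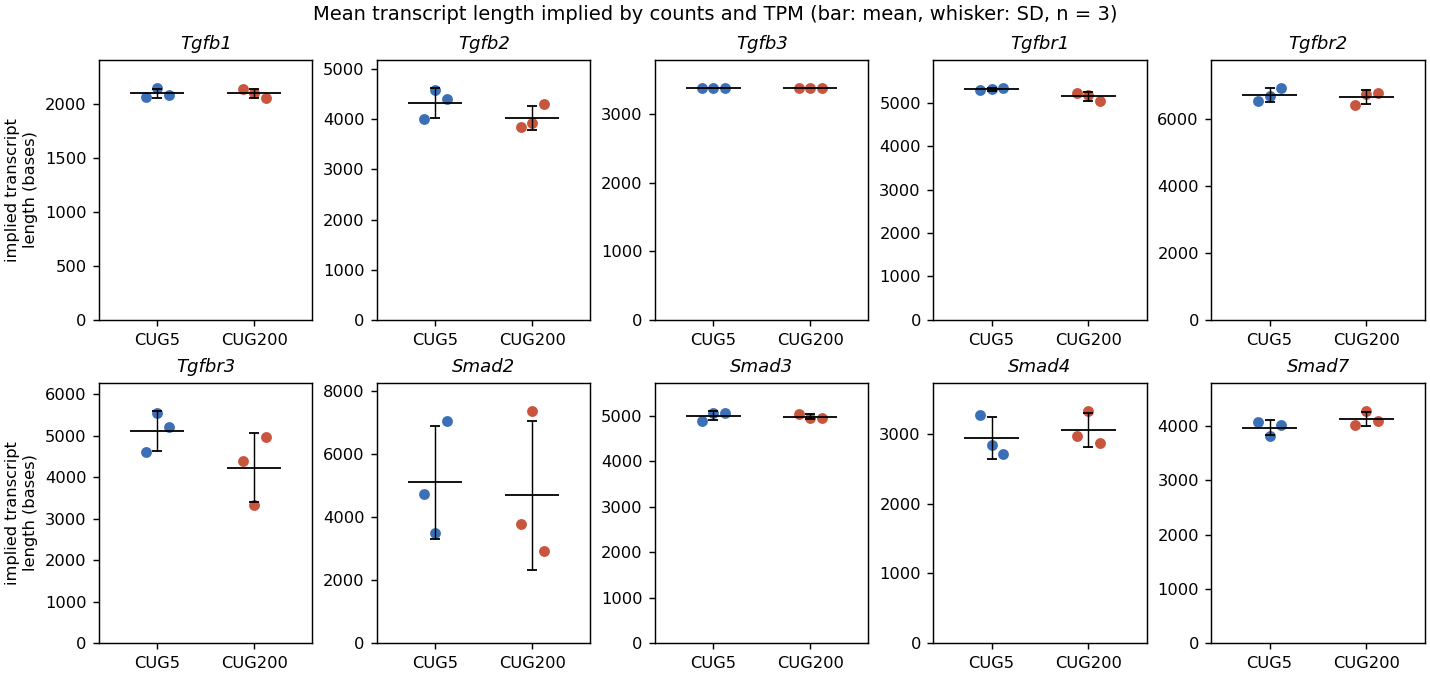
Mean transcript length implied by the counts and TPM values (bases, vertical axes from 0) of each gene in the 3 normal (blue) and 3 DM1 (red) libraries, with the mean as a bar and the SD as a whisker. *Tgfb3* is flat at 3383 bases, *Tgfbr1* is slightly shorter in all DM1 libraries, and *Smad2* varies most, from 2919 to 7362 bases.

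The other genes of the pathway were taken from 4 lists of 132 genes in all, chosen with earlier results of these data known, of which 123 were tested. In these lists 28 genes were upregulated and 12 downregulated in the DM1 group at an adjusted p under 0.05 in edgeR, and 6 of the former also passed the fold cutoff. The lowest log2 fold change among the lists was −0.83, so no downregulated gene reached it. Without DM1 library 3 the number of downregulated genes was 23, and without normal libraries 2 and 3 and DM1 library 2 it was 7, 4, and 4. The number of upregulated genes was 13 without each normal library and 12 without DM1 library 2, and limma on log2(TPM + 1) called 8 higher and 5 lower. The counts of each list are given beside its size and beside the 7.13% of all tested genes that rose and the 8.73% that fell. Because the lists were chosen with earlier results known, a share above these is a description and not a test of the pathway.

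The list on ligand latency and activation had 20 tested genes of 25, of which 2 rose and 3 fell (10% and 15%), and its median log2 fold change was 0.12. The genes that fell, *Itgb6*, *Itgb5*, and *Itgb8*, encode integrin beta subunits, while the beta subunit genes *Itgb1* and *Itgb3* (log2 fold changes 0.25 and 0.15) and the alpha v subunit gene *Itgav* (−0.22) of the same list did not pass (adjusted p = 0.135, 0.386, and 0.523 in edgeR). *Itgb6* fell from 32.6 ± 1.55 to 21.8 ± 1.63 CPM (SD, n = 3 each; log2 fold change −0.58, adjusted p = 0.00688 in edgeR) and stayed past the threshold whichever library was left out. *Itgb5* (−0.50, adjusted p = 0.00922) lost its call without normal library 3 (0.0569), and *Itgb8* (−0.67, adjusted p = 0.0280) without normal libraries 2 and 3 and DM1 library 2 (up to 0.115). *Emilin1*, a matrix protein that restrains TGF-beta maturation (0.85, adjusted p = 0.0233), and *Bmp1*, a protease that frees latent complexes (0.43, adjusted p = 0.0335), were higher. The call was lost for *Emilin1* without normal libraries 1 and 2 or DM1 library 1 (up to 0.0868) and for *Bmp1* without any normal library or DM1 library 2 (up to 0.121). With limma on log2(TPM + 1) both missed the threshold, at 0.30 (adjusted p = 0.485) and 0.27 (adjusted p = 0.326). The genes of latent binding proteins *Ltbp1*, *Ltbp3*, and *Ltbp4* had log2 fold changes of −0.20, 0.17, and 0.06, and none passed. *Nrros*, *Pcsk5*, *Fbn2*, *Mmp9*, and *Plg* were too low to be tested.

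Among the coreceptors and receptor modulators, 3 of 17 tested genes (17.6%) rose and 1 (5.88%) fell, and the median log2 fold change was 0.29. *Dcn*, a proteoglycan that binds TGF-beta, had the highest level of the genes that passed, 734, 772, and 693 CPM in the normal group and 1158, 932.6, and 909.5 CPM in the DM1 group (log2 fold change 0.45, adjusted p = 0.0281 in edgeR). *Tgfbr3l*, a betaglycan-like gene (0.91, adjusted p = 0.0310), and the proteoglycan *Fmod* (1.05, adjusted p = 0.0429) were low in both groups and higher in all DM1 libraries, with means of 7.14 and 6.997 CPM against 3.81 and 3.38 CPM. *Nrp1*, a neuropilin that binds latent and active TGF-beta, fell from 54.2 ± 1.86 to 40.8 ± 2.20 CPM (SD, n = 3 each; −0.41, adjusted p = 0.0126). With 1 library left out, the 3 genes that rose kept their calls in few fits. *Dcn* lost its call without any normal library or DM1 library 2 (up to 0.115), *Tgfbr3l* and *Fmod* without each library other than DM1 library 1 (up to 0.112 and 0.133), and *Nrp1* without normal library 3 or DM1 library 2 (0.0764 and 0.0620). With limma on log2(TPM + 1) none of these 4 genes passed, and *Fmod* was at 0.66 (adjusted p = 0.178). In edgeR the log2 fold change of *Fmod* went down to 0.65 with 1 library left out, below the fold cutoff. Its level was 4.48, 6.12, and 10.4 CPM in DM1 libraries 1, 2, and 3. Endoglin (*Eng*), a coreceptor better known from endothelium, had a log2 fold change of 0.47 and did not pass (adjusted p = 0.0959 in edgeR), and *Lrg1* was too low to be tested.

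Of 38 tested SMAD partners, inhibitors, and ubiquitin ligases, 2 rose and 2 fell (5.26% each), and the median log2 fold change was −0.14. *Zeb1*, a SMAD-binding repressor (0.38, adjusted p = 0.0181 in edgeR), and *Usp11*, a deubiquitinase (0.45, adjusted p = 0.0335), were higher. *Tgif1*, a SMAD corepressor (−0.40, adjusted p = 0.0252), and *Smurf1*, a ubiquitin ligase that is recruited by SMAD7 (−0.32, adjusted p = 0.0362), were lower. Leaving out DM1 library 2 ended each of these 4 calls (adjusted p = 0.0769, 0.0747, 0.0753, and 0.137), as did leaving out normal library 2 or 3. *Zeb1*, *Usp11*, and *Smurf1* also lost theirs without normal library 1, and *Smurf1* without DM1 library 1. With limma on log2(TPM + 1) none of the 4 passed, and *Zeb1* was at 0.12 (adjusted p = 0.692). The number of genes that fell was 12 without DM1 library 3. The SMAD partner *Foxh1* was too low to be tested. The corepressor genes *Ski* and *Skil* had log2 fold changes of −0.13 and 0.20, and neither passed.

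Of 56 tested TGF-beta target genes, 21 (37.5%) rose and 8 (14.3%) fell, and 5 of the former also passed the fold cutoff. The median log2 fold change was 0.23, and *Cdkn2b* and *Twist1* were too low to be tested. The periostin gene *Postn*, a matrix protein gene on which the study turns, rose most, from 50.6, 47.1, and 45.7 CPM in the normal group to 350, 334, and 356 CPM in the DM1 group (log2 fold change 2.86, SE 0.0865, adjusted p = 3.52e-06 in edgeR). The other upregulated target genes with the smallest p-values were *Tagln*, a smooth muscle actin-binding protein (1.31, adjusted p = 4.81e-04), *Col1a1*, a chain of type I collagen (1.06, adjusted p = 9.16e-04), and *Has2*, a hyaluronan synthase (0.85, adjusted p = 0.00195). The count without normal libraries 1, 2, and 3 was 13, 13, and 12 genes and without DM1 library 2 it was 11. With limma on log2(TPM + 1) 8 target genes rose and 4 fell.

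The downregulated target genes with the smallest p-values were *Hmga2*, a chromatin protein (−0.83, adjusted p = 0.00205 in edgeR), *Col4a1*, a basement membrane collagen chain (−0.65, adjusted p = 0.00332), *Jun*, an AP-1 subunit (−0.46, adjusted p = 0.00914), and *Itgb5*. *Jun* missed the threshold without DM1 library 2 (0.0519), and the count of downregulated target genes was 5 without normal library 2 and 3 each without normal library 3 and DM1 library 2. The textbook target *Ccn2* (CTGF) was picked after its values were seen. It was at 113, 85.6, and 99.1 CPM in the normal group and at 64.6, 63.8, and 79.0 CPM in the DM1 group (−0.52, adjusted p = 0.0258 in edgeR). The groups did not overlap, but *Ccn2* missed the threshold without normal libraries 1 and 3 and DM1 libraries 1 and 2 (up to 0.102).

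**Figure D5:**
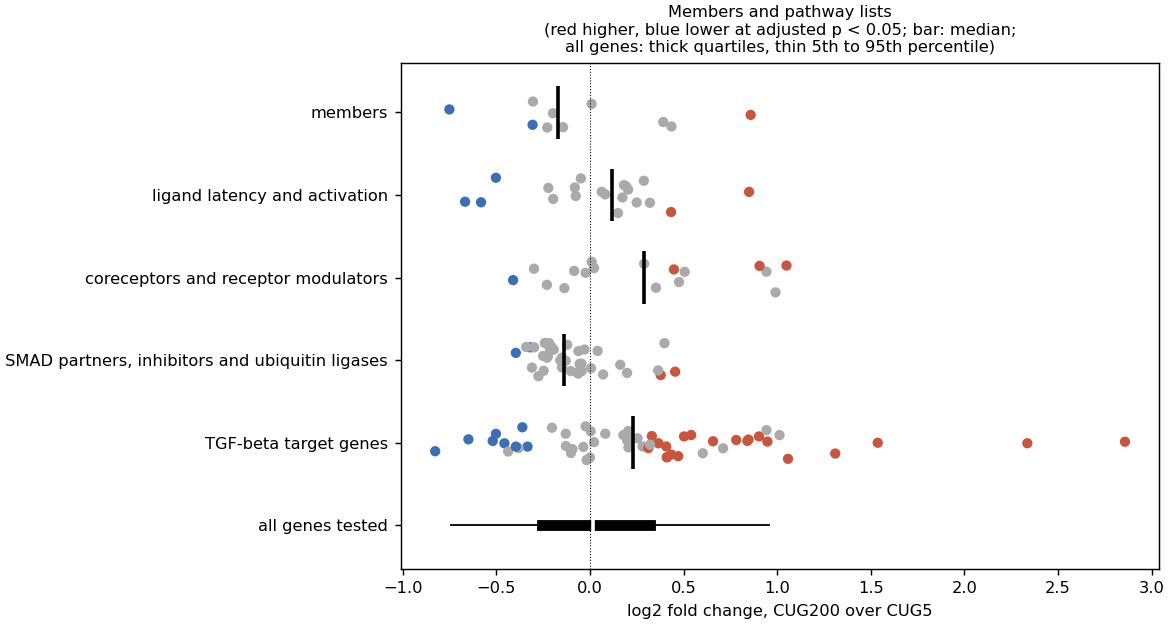
Log2 fold change of the DM1 over the normal group (horizontal axis) for the 10 genes and for the tested genes of the 4 pathway lists, 1 point per gene, red or blue where the adjusted p was under 0.05, with the list's median as a black bar. For all tested genes the thick line spans the quartiles and the thin line the 5th to 95th percentile; the target genes reach furthest to the right (2.86, *Postn*), and the 10 genes lie between −0.75 and 0.86.

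Markers of some other cell states differed between the groups, and their part in the results above was not tested. The counts below are set beside the 7.13% of all tested genes that rose and the 8.73% that fell, as a description. Of 26 tested myotube genes, 20 fell and the others did not pass, as called by edgeR, and their summed level was 18206 to 19678 CPM in the normal libraries and 11231 to 12937 CPM in the DM1 libraries. In bulk RNA, fewer myotubes and less muscle RNA per myotube cannot be told apart. By immunostaining at a later day of differentiation, the study found a smaller myotube area and a lower fusion index in the DM1 group. The summed level of the 12 tested fibroblast genes was 1291 to 1607 CPM in the normal group and 1833 to 1939 CPM in the DM1 group (6 rose and 1 fell), while the fibroblast gene *Tcf21* was at 0. *Dcn*, which is also counted above among the coreceptors, supplied 693 to 772 CPM of the normal sum and 909.5 to 1158 CPM of the DM1 sum. Markers of mononucleated or cycling myoblasts summed to 1629 to 1660 and 1635 to 1940 CPM, which overlap, and of 19 tested *Pcna* and *Cd34* rose and *Mcm2*, *Mcm5*, *Notch1*, and *Heyl* fell. *Cd34* is also in the fibroblast list. Smooth muscle or pericyte markers (1 of 9 rose and 2 fell) summed to 2227 to 2406 and 1713 to 2089 CPM, of which *Des*, a gene that skeletal muscle also expresses, supplied 1685 to 1853 and 1183 to 1439 CPM. Macrophage markers (6 tested, none passed in edgeR) summed to 11.5 to 12.6 CPM in the normal group and 13.5 to 15.4 CPM in the DM1 group. Endothelial markers (1 of 4 fell) summed to 11.8 to 12.8 and 8.43 to 10.4 CPM, and adipocyte markers (1 of 3 fell) to 42.1 to 46.9 and 31.3 to 33.6 CPM. The macrophage, endothelial, and adipocyte sums came mostly from *Cd14* and *Cd68*, from *Tek* and *Flt1*, and from *Lpl* and *Pparg*. The markers at 0 in every library were *Ptprc*, *Adgre1*, *C1qa*, *C1qb*, and *Tyrobp* for macrophages, *Tie1* and *Erg* for endothelium, *Adipoq*, *Fabp4*, *Lep*, *Cidec*, *Retn*, and *Cfd* for adipocytes, and *Kcnj8* for pericytes.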

How the data were processed

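Per the labels, total RNA of C2C12 CUG5 and CUG200 cells was sequenced at differentiation day 4. The authors trimmed the reads with Trim Galore, aligned them to GRCm38 with HISAT2, with StringTie for quantification. The deposited files are 1 matrix of raw counts for all libraries and, per library, the coverage and TPM of each gene; the deposited TPM values are scaled for transcript length and library size, and the deposited coverage served to find the unit of a count. Their read length and strand setting are not given in the sources used here.

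Genes were filtered with filterByExpr (minimum count 10), which left 19005, and scaled by TMM (factors 0.940 to 1.05). Groups were compared with edgeR 4.0.16 (quasi-likelihood, robust, no covariate, R 4.3.3) and p-values were Benjamini-Hochberg adjusted over all tested genes. DESeq2 1.42.0, limma 3.58.1 on log2(TPM + 1) and log2(TPM + 0.1), other scalings and filters, the replicate block, and leaving out each library were alternatives. The limma fits used TPM without TMM scaling. Adding 1 to TPM makes log2 fold changes smaller at low TPM, so these are not on the scale of those from edgeR. The test was checked on simulated data whose changes were larger than those of any member. The check does not cover changes of the members' size. The implied length is 75 times the count divided by the product of TPM and the library's coverage per TPM. Intervals cover the spread between libraries. The members and lists were chosen with earlier results of these data known. Named were all members, *Postn*, up to 4 genes per list and direction with the smallest p among those called, and the 2 genes nearest in pattern to each called member. *Itgb1*, *Itgb3*, *Itgav*, *Ltbp1*, *Ltbp3*, *Ltbp4*, *Eng*, *Ski*, *Skil*, and *Ccn2* lie outside this rule and were chosen after their values were seen. Some items are not reported here.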

Additional observations from a re-analysis of the deposited data

How the results depend on the processing

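*Tgfbr1* and *Tgfbr3* kept their direction and call under all 16 alternative settings, and *Smad3* kept its direction under all and its call under 8. DESeq2 called 2 members higher (*Tgfb2* joined *Tgfbr3*) and 3 lower (*Tgfb3* was added). Library sizes alone called 1 member lower, and limma on log2(TPM + 1) and on log2(TPM + 0.1) each called 1 lower. With 1 library left out, 1 to 3 members were higher and 1 to 4 lower. With 1 library left out, *Smad2* ranged from −0.51 to 0.14, reversing without normal library 3, and *Smad4* from −0.087 to 0.12, reversing without normal library 2 and DM1 libraries 2 and 3. *Smad4* also reversed to −0.011 with library sizes alone and to −0.17 in both limma fits. Over all genes, 1356 were higher and 1660 lower, against 427 and 816 with limma on log2(TPM + 1), 434 and 850 with log2(TPM + 0.1), and 543 to 1678 and 485 to 2111 with 1 library left out. With the fold cutoff, 259 were higher and 155 lower, against 61 and 79 with log2(TPM + 1), 171 and 194 with log2(TPM + 0.1), where more genes were lower than higher, and 181 to 271 and 91 to 192 with 1 library left out. The pathway lists held 28 higher and 12 lower genes, against 8 and 5 in both limma fits and 12 to 30 and 4 to 23 with 1 library left out, and 6 higher with the fold cutoff, against 3 in both limma fits and 4 to 9 with 1 library left out. The causes of these shifts were not tested, but a fit without 1 library has fewer samples. Deviations of libraries with the same replicate number correlated at 0.07, 0.02, and 0.03, so the numbers were not taken as pairs, and with the replicate block 2 members were higher (*Tgfb2*, adjusted p = 0.0469). Summing counts with genes that share exons, chosen after seeing the data, changed no member's call. The median log2 fold change of all genes lay between −0.09 and 0.03 over the settings.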
